A study of Rattus norvegicus with 448 samples.

Results

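The libraries described here are 160 rat liver libraries, chosen by their measured Pdk4 level: the 80 with the highest and the 80 with the lowest among the usable libraries. The labels list 430 libraries with a matching column of values and 18 without an identifier to match, and 38 of the 430 were not usable, having fewer than 15000 genes above 0. All come from outbred rats aged 17 weeks, whose liver was snap-frozen, extracted with Trizol and sequenced as 37 bp paired-end reads. The study mapped loci for metabolic traits in these animals and asked which liver genes near those loci could drive them. The labels put every liver library in 1 group and give no sex, treatment, genotype, feeding state or time of day. The high and low sets are thus not groups of the study: they were made by ranking libraries on a measured value.

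Pdk4 encodes pyruvate dehydrogenase kinase 4, a mitochondrial kinase that phosphorylates the pyruvate dehydrogenase complex and so switches it off. Pyruvate is then kept from becoming acetyl-CoA, which spares carbon for glucose production while the cell burns fatty acids. In liver the gene is known to be induced in fasting, by glucocorticoids and by fatty acids through PPAR alpha and FOXO factors, and to be held down by insulin. It is therefore often read as a sign of the fed or fasted state of the tissue.

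The ranking rests on this gene alone, so the bases before its start are shown here. They are the 250 bases upstream of the RefSeq start of Pdk4 on the minus strand of chromosome 4 in the build GRCr8, chr4:34568330-34568579. The sequence reads 5′ to 3′ along the gene, and capitals mark the motif matches.

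Pdk4 upstream: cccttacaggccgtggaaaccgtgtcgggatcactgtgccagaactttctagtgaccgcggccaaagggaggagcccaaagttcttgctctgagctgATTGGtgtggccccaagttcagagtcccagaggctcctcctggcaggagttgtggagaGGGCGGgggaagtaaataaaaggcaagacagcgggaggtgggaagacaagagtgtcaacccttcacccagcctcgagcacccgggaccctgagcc

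The CCAAT motif had 1 match, on the opposite strand and beginning at base 98 of the window, and 34% of 33469 upstream windows of the same length held it. The GGGCGG motif had 1 match, 95 bases before the start, and 30.5% of windows held it. Both strands were searched for the exact letters of each motif, with any base in a spacer. Other forms of these motifs were not looked for. No match was found in this window for TATAAA (in 12.9% of windows), the forkhead motif GTAAACA (3.21%), CACGTG (5.59%), the direct repeat of AGGTCA with 1 base between, known from PPAR sites (0.0508%), or the inverted repeat of AGAACA with 3 bases between, known from glucocorticoid receptor sites (0.012%). These matches describe the letters of the window and say nothing of binding.

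Pdk4 varied widely among the usable livers. In the low set it had 4.92 FPKM (a level scaled to gene length and to the library) at the lowest, 14.28 at the median and 20.82 at the highest. In the high set the lowest was 57.39 FPKM, the median 68.86 and the highest 154.7. The medians differed by a factor of 4.82. The usable libraries in neither set (59.2% of them), called the libraries between the sets below, ran from 20.84 to 57.24 FPKM with a median of 35.91. The libraries just inside and just outside each bound were nearly alike. The next library above the low set had 20.84 FPKM against 20.82 inside it, and the next below the high set had 57.24 against 57.39. These values made the sets and carry no test.

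**Figure D1:**
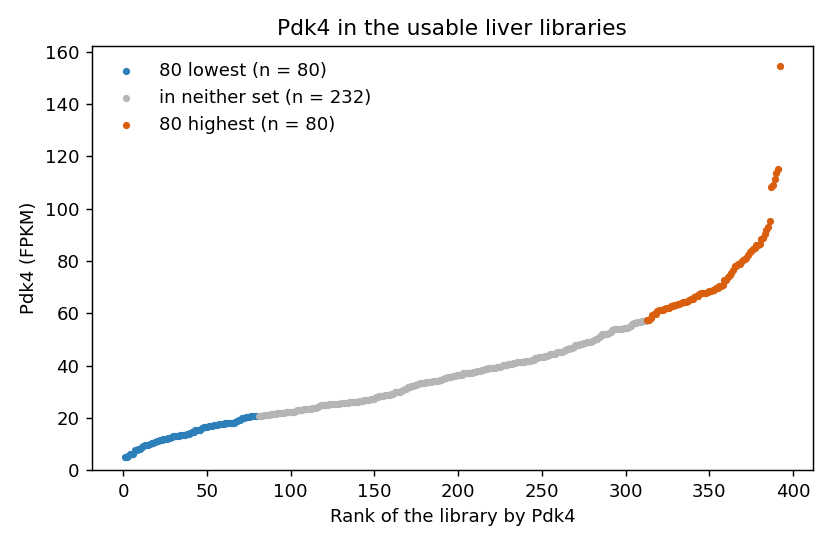
Pdk4 in FPKM (vertical axis) of each usable library (1 point each) by its rank (horizontal axis), with the 80 lowest in blue, the 80 highest in orange and the libraries between the sets in grey. The level rises smoothly from 4.92 to 57.24 FPKM and then more steeply, with no step at the bounds of the sets and a gap from 115.19 to 154.7 below the highest library.

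Both sets were drawn from the whole run of title numbers, though not evenly. Over 4 consecutive blocks of 98 usable libraries by title number, the low set had 23, 15, 26 and 16 libraries and the high set 9, 25, 22 and 24. The block of the lowest title numbers thus gave few libraries with high Pdk4. The identifiers in the labels have a first part that 43.6% of the usable libraries shared with at least 1 other, in 99 pairs. Of these pairs 6 had both libraries in the high set, 7 had both in the low set and 6 had 1 in each. A further 23 pairs joined a high library, and 23 a low library, with a library between the sets. What the shared first part means is not in the labels. Libraries that shared it resembled each other, with a correlation estimated by limma of 0.28 in the sets and 0.428 between them, and taking it as a block left the counts of called genes below nearly the same. They also do not state that every library is from its own animal, so the p-values given here measure only the spread between libraries.

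The sets also differed in measures of the whole library. The number of genes above 0 had a median of 15577 in the low set and 16085.5 in the high set, and 14 low against 61 high libraries lay above the median of all usable ones. Reads, recovered as the smallest whole numbers that give the deposited values, had a median of 21451840 in the low set and 27992400 in the high set, with a range over the usable libraries from 12749016 to 61322450. Even numbers were more common than odd ones, with a median of 38.19% odd per library. Whether a unit is a read or a pair was not settled, so these totals serve to compare libraries and are not absolute depths. Summed FPKM went the other way, with a median of 599826 in the low set and 522410 in the high set. The number of genes above 0 is a covariate of every test below unless stated. What part depth had in the results was not tested beyond that covariate and an added covariate for reads. The labelled tissue was not checked against liver markers, since the sources used here do not pair the table's Ensembl IDs with gene names. In bulk tissue, fewer cells of a type and less RNA per cell cannot be told apart.

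Most of the liver transcriptome differed between the sets. Of 12185 genes tested, 5047 (41.4%) were higher and 4115 (33.8%) lower in the high set at an adjusted p under 0.05 (limma on log2(FPKM + 1), Benjamini-Hochberg), 75.2% in all. Pdk4 chose the libraries, so these shares describe the sets, and nothing is read from a gene being called here. Most differences were small: the median size without regard to sign was 0.25 on the log2 scale. The signed differences had quartiles of -0.21 and 0.3 around a median of 0.03. Differences of 0.5 or more were found for 1537 higher genes (12.6%) and 622 lower genes (5.1%). Differences of 1 or more, which is a doubling on this scale, were found upward for 2.29% of the genes tested and downward for 17 genes (0.14%). In no gene were the sets apart in every library: the count without overlap was 0 higher and 0 lower of 12185 (0.0% each).

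The libraries between the sets gave a test in libraries that the comparison had not used. They come from the same ranking on Pdk4, and some share a first part of the identifier with libraries of the sets. They are thus not an independent series. There, a gene's slope on Pdk4 is the change of its log2 level per log2 unit of Pdk4. The slope was positive for 3271 genes (26.8%) and negative for 2434 (20%) at an adjusted p under 0.05 in limma, 46.8% in all. These shares were 12% and 9.82% under a stricter minimum of genes above 0 with the libraries ranked again. Of the genes higher in the high set, 3085 also had a positive slope, which was 61.1% of them and 94.3% of the positive slopes. Of the genes lower in the high set, 2073 had a negative slope, which was 50.4% of them and 85.2% of the negative slopes. Of the 12185 genes tested, 22 were called in both comparisons but in opposite directions. Over all genes tested, called or not, 83.3% had the same sign in both comparisons.

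**Figure D2:**
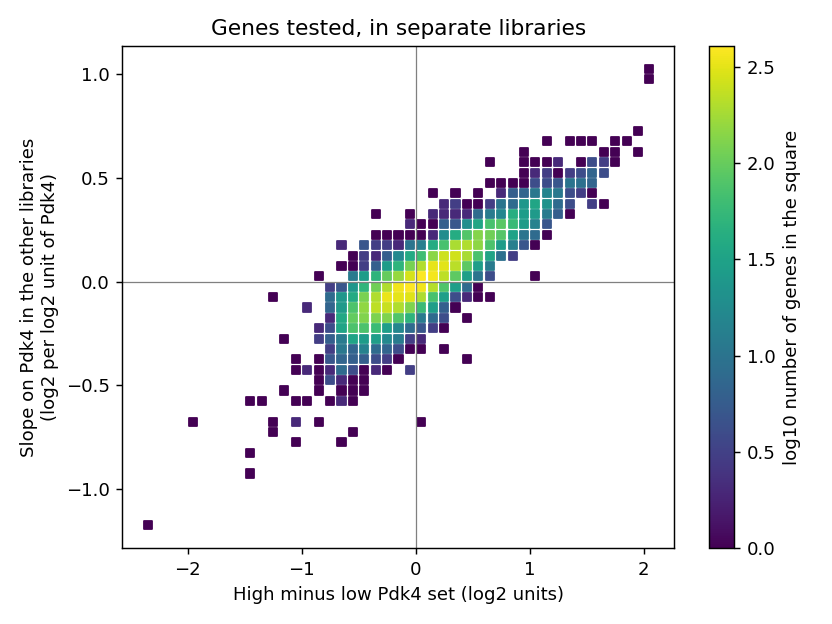
Each square collects genes by their difference between the high and the low Pdk4 set (horizontal axis, log2 units) and their slope on Pdk4 in the libraries between the sets (vertical axis, log2 per log2 unit of Pdk4), with colour for the log10 number of genes. The cloud runs from lower left to upper right, with 83.3% of the 12185 genes at the same sign in both.

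Mean levels in the libraries between the sets were intermediate for nearly all called genes, unadjusted and on the log2 scale. This held for 98.4% of the higher genes and 95.2% of the lower ones. These genes were called on the difference between the low and high sets, whose means bound the intermediate range. An intermediate mean was thus largely built in, and these shares are only a description. Genes that were not called were not placed in this way, so no share over all genes tested is given. The step was not even: the median gene had covered 67.2% of the way from the low to the high set when higher, and 68.5% when lower. Pdk4 itself stood at 55.1% of the way. The low set thus stood farther from the other libraries than the high set did in most of the called genes.

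The genes called higher and those called lower in the high set differed in length, which is given here as a description. Gene length was recovered from the values themselves, as the whole number of bases that turns FPKM into whole reads, and not read from an annotation. Of the longest 25% of genes (3345 bases or more), 79.5% were higher and 5.02% lower in the high set. Of the shortest 25% (up to 1298 bases), 17.9% were higher and 59.9% lower. In the groups between them, 23.4% and 44.9% were higher, in order of length. The median length was 3256 bases among the higher genes, 1396 among the lower ones and 2117 among all genes tested.

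The libraries between the sets showed the same order. In them 53.6% of the longest genes had a positive slope on Pdk4 and 4.14% a negative one, against 9.52% and 30% of the shortest. The order by length was also found at each level of expression. In the 25% of genes with the lowest mean level, 76.4% of the longest and 25.9% of the shortest genes were higher in the high set. In the 25% with the highest level the shares were 76.2% and 7.29%. Pdk4 was not itself a long gene: its recovered length was 1573 bases, and 33.3% of the genes tested were shorter.

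**Figure D3:**
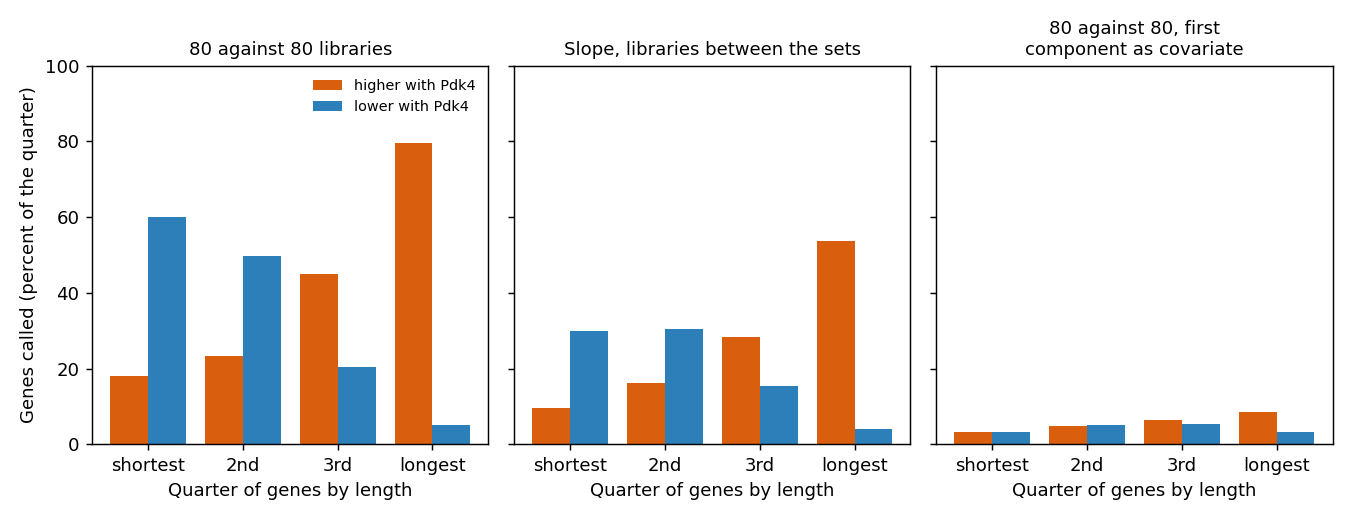
Percent of genes called higher (orange) or lower (blue) with Pdk4, in 4 equal groups of genes by recovered length from shortest to longest, in the 80 against 80 libraries (left), as a slope in the libraries between the sets (middle) and in the 80 against 80 with the first component as covariate (right). The share of higher genes rises from 17.9% to 79.5% on the left, from 9.52% to 53.6% in the middle, and from 3.22% to 8.44% on the right.

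The sets lay far apart on the main axis of variation of these libraries. The first principal component of the 12185 genes, which held 40% of the variance over the usable libraries, had a median score of -1.35 in the low set and 0.87 in the high set, in SDs of all usable libraries. Scores ran from -2.71 to 0.7 in the low set and from -0.67 to 1.65 in the high set. Of the low set 5 libraries, and of the high set 75, lay above the median of all usable libraries. Of the 5047 higher genes 4974 had a positive loading on this component, and of the 4115 lower genes 4011 had a negative one, against 6716 positive and 5469 negative loadings among all genes tested. The score is built from the same genes and libraries, so this is a description.

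**Figure D4:**
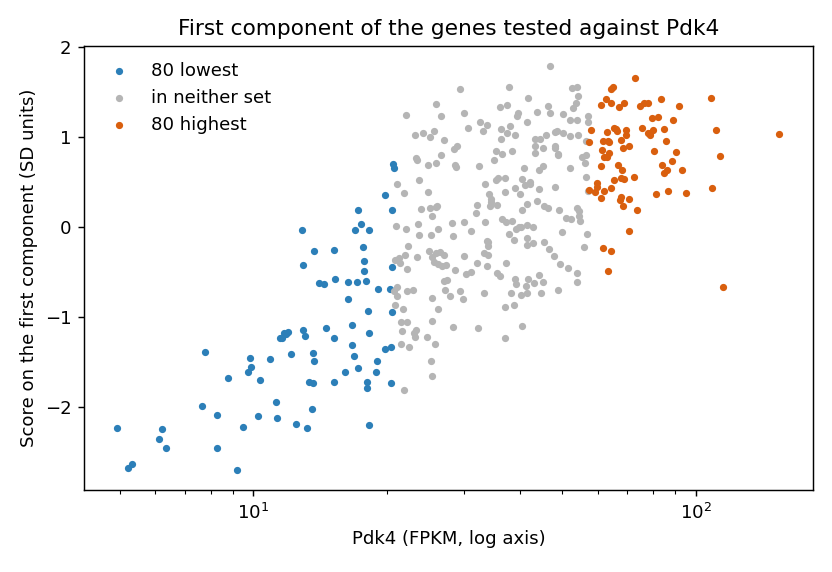
Score on the first component (vertical axis, SDs over the usable libraries) against Pdk4 (horizontal axis, FPKM on a log axis), 1 point per library. The low set (blue) runs from -2.71 to 0.7 and the high set (orange) from -0.67 to 1.65, and the scores of the libraries between them (grey) spread from -1.82 to 1.79.

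With the score as a further covariate, far fewer genes went with Pdk4. Between the sets 702 genes (5.76%) were then higher and 506 (4.15%) lower, 9.91% in all. The order by length was weaker among the higher genes, with 8.44% of the longest and 3.22% of the shortest called. Among the lower genes the shares were 3.25% and 3.12%. The median difference was 0.02 in the shortest and 0.03 in the longest genes, against -0.25 and 0.3 without the score. Between the sets the direction itself changed for some: 3.21% of the 5047 genes called higher without the score were called lower with it. Of the genes called lower without it, 1.97% were called higher with it. In the libraries between the sets 610 genes (5.01%) had a positive slope and 735 (6.03%) a negative one, 11% in all. Of the longest genes 6.01% then had a positive and 6.37% a negative slope, against 3.18% and 3.91% of the shortest. Over all genes tested, 55.6% had the same sign in both comparisons, against 83.3% without the score. Of the higher genes 24.5%, and of the lower genes 41.3%, were also called in the same direction in the other libraries, where 5.01% and 6.03% of all genes were called. In 54 libraries of both sets whose scores lay in the shared range from -0.67 to 0.7, of which 22 were low and 32 high, 1482 genes (12.2%) were higher and 930 (7.63%) lower. The order by length was still present there, with 24.2% of the longest and 4.07% of the shortest genes higher. The score was not a covariate in that fit and the sets were not matched on it within the range. This comparison thus does not hold the component equal. What the component reflects was not tested.

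A smaller set of genes was called both with and without the first component as a covariate. The score is built from the same genes and libraries, so these calls do not show a relation apart from the component. Between the sets and in the libraries between them, with and without the score, 1.18% of the genes tested were called higher in all 4 fits and 0.968% lower in all 4. Their median lengths were 3104 bases for the higher and 2042 for the lower genes, against 3256 and 1396 among all genes called between the sets. The median level was 2.94 for the higher and 3.92 for the lower genes, against 3.0 for all genes tested, on the log2(FPKM + 1) scale. The 4 IDs given next, the 2 largest rises and the 2 largest falls among these genes, were chosen after their values were seen. Being called between the sets and in the libraries between them was a condition of the choice. The p-values given for them below are thus a description and no test. The sources used here give no name for them, and nothing is said of their function.

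ENSRNOG00000057832 had the largest fitted rise, by a small margin that several other settings reversed. In the low set it had 2.98 FPKM at the lowest, 12.63 at the median and 31.89 at the highest. In the high set it had 8.93, 49.93 and 138.73 FPKM, and in the other libraries 4.11, 27.92 and 117.79. The median was 3.95-fold higher in the high set, and 79 of 80 high libraries lay above the low median. The fitted difference was 2.06 on the log2 scale (SE 0.154, adjusted p = 1.07e-25, limma, 80 against 80 libraries). In the other libraries the slope was 1.01 (SE 0.124, adjusted p = 4.17e-11), so a doubling of Pdk4 went with about a doubling of this gene. With the first component added the difference was 1.6 and the slope 0.88 (adjusted p = 6.38e-09). With the first 5 components added, the difference was 0.45 and the slope 0.09, and neither passed (adjusted p = 0.0643 and 0.652).

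ENSRNOG00000001052 had nearly the same fitted rise from a lower level, and a larger ratio of medians, 5.27. It had 0.75, 4.67 and 25.86 FPKM at the lowest, median and highest library of the low set. In the high set these values were 4.7, 24.59 and 131.2 FPKM, and in the other libraries 2.13, 10.66 and 64.29. All 80 high libraries lay above the low median, and 1 low library lay above the high median. The difference was 2.05 (log2, SE 0.174, adjusted p = 8.22e-22, limma) and the slope in the other libraries 0.96 (SE 0.128, adjusted p = 2.02e-09). With the first component added they were 1.32 and 0.89 (adjusted p = 5.58e-06 and 3.39e-08). With the first 5 components added they were 0.78 and 0.82 (adjusted p = 0.0482 and 5.35e-05).

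ENSRNOG00000003634 had the largest fitted fall. It had 2.8, 63.49 and 135.69 FPKM at the lowest, median and highest library of the low set, and 3.21, 7.0 and 116.55 FPKM in the high set. The other libraries had 2.96, 39.17 and 140.36 FPKM. Each set covered nearly the whole range, and the sets differed in how many libraries were near its lower end. Levels under 10 FPKM were found in 10 low libraries (12.5%), 51 libraries between the sets (22%) and 46 high libraries (57.5%). The high set was lower by a log2 difference of -2.35 (SE 0.271, adjusted p = 2.79e-14, limma), and the slope was -1.16 (SE 0.231, adjusted p = 2.63e-05). The difference was -3.36 and the slope -1.71 with the first component added (adjusted p = 3.07e-13 and 5.64e-12), and -1.09 and -0.62 with the first 5 (adjusted p = 0.00147 and 0.00131).

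ENSRNOG00000056135 fell from 69.89 FPKM at the median of the low set to 21.23 in the high set, with 47.13 in the other libraries. The range was 13.12 to 169.47 FPKM in the low set and 7.82 to 128.73 in the high set, and 74 of 80 high libraries lay below the low median. The difference was -1.43 (log2, SE 0.182, adjusted p = 2.86e-12, limma) and the slope -0.82 (SE 0.143, adjusted p = 2.35e-06). With the first component added they were -1.65 and -1.04 (adjusted p = 2.12e-07 and 9.77e-10). With the first 5 components added the difference of -0.3 did not pass (adjusted p = 0.358), and the slope was -0.5 (adjusted p = 0.00755). The library LSW_197 went against its set: it had 115.19 FPKM of Pdk4, the next to highest, 87.5 FPKM of ENSRNOG00000003634, 128.73 FPKM of ENSRNOG00000056135 and the lowest component score of the high set, -0.67. Its 8.93 FPKM of ENSRNOG00000057832 was also the lowest of the high set. Without it the difference of ENSRNOG00000003634 was -2.4 and that of ENSRNOG00000056135 -1.46.

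**Figure D5:**
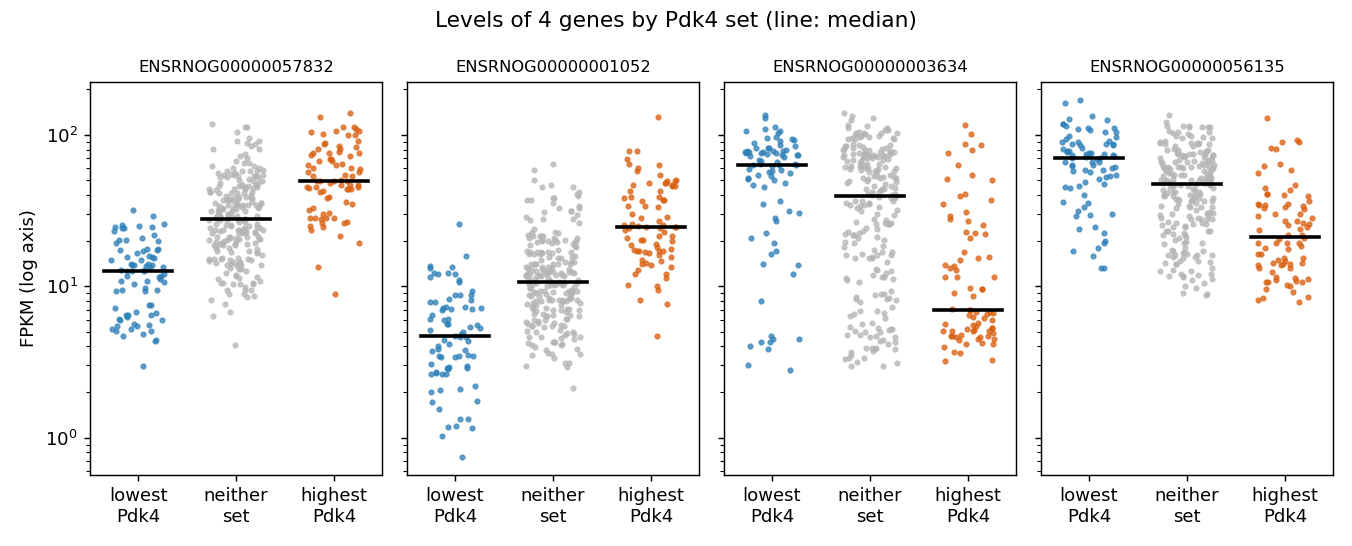
FPKM on a log axis of 4 genes in the libraries with the lowest Pdk4 (blue, n = 80), between the sets (grey) and with the highest Pdk4 (orange, n = 80), 1 point per library and a line at the median. Medians rise from 12.63 to 49.93 FPKM in ENSRNOG00000057832 and from 4.67 to 24.59 in ENSRNOG00000001052. They fall from 63.49 to 7.0 in ENSRNOG00000003634 and from 69.89 to 21.23 in ENSRNOG00000056135, with overlap between the sets in each.

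Values by block of title numbers are given as a description, since the genes were chosen on the same libraries. Unadjusted for the number of genes, the difference of ENSRNOG00000057832 was 1.62, 1.97, 2.0 and 2.51 in the 4 blocks, and that of ENSRNOG00000001052 was 2.37, 1.86, 2.28 and 2.54 (log2). The difference of ENSRNOG00000003634 was -1.21, -2.65, -1.85 and -1.35, and that of ENSRNOG00000056135 was -1.01, -1.73, -1.41 and -1.23. The first block had 9 high libraries.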

How the data were processed

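Liver RNA was sequenced as 37 bp paired-end reads, per the labels' protocols. The submitters' processing notes list STAR, Picard, featureCounts and DESeq2, with neither version nor role. For the build, annotation and strand setting, nothing is given in the sources used here. The deposited values are FPKM, a unit read from the values and not stated in the header. Columns were matched to libraries by the identifier in the labels. Matched columns numbered 430, and 1 column of values matched no library and was not used. The 18 libraries without an identifier are not analysed here.

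The smallest whole reads and gene lengths that give the deposited values were computed, and 99.96% of values were whole within 0.001. Genes at 1 FPKM or more in 10% of the usable libraries were tested (12185, Pdk4 left out) on log2(FPKM + 1), a scale that understates the change of low genes. The test was limma 3.58.1 in R 4.3.3 with a variance trend, two-sided, with Benjamini-Hochberg adjustment over all genes. On simulated reads of 12185 genes it called 68 of 100 genes changed by 0.3 (log2) and 93 of 100 changed by 0.6 between the sets, and 84 and 96 of 100 for slopes of these sizes. False calls numbered 6 and 8. Each gene was simulated independently, with no shared component and no correlation between libraries. These numbers thus do not measure the errors in the real data.

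The sets, comparisons and lists were chosen with earlier results of these data known. Pathway and cell type lists could not be matched to the table's IDs: the reference table holds no Ensembl IDs. Those lists were therefore not described. The rule for named genes, which needed symbols, gave none. The RefSeq window of Pdk4 was matched by symbol, and the pairing of Pdk4 with ENSRNOG00000009565 was given with the ranking rule. No 2 usable libraries had identical values. Counts with other scalings, filters, set sizes and covariates are in the closing section, many of them only as part of a range. With log10 reads as an added covariate, 39.7% of genes were higher and 33.6% lower between the sets. Slopes were then 25.4% positive and 19.7% negative.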

Additional observations from a re-analysis of the deposited data

How the results depend on the processing

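Shares are percent of the genes tested. The factor of 1.5 used next compares numbers of genes and not shares, so a filter that changes the genes tested also moves it. Of 76 alternative counts of called genes, 61 were within a factor of 1.5 of the reported count. In these, 37.6% to 48.3% of genes were higher and 27% to 36.8% lower between the sets, and 21% to 36.1% had a positive and 14.7% to 28.7% a negative slope. The other 15 follow. With the first component added, 5.76% were higher and 4.15% lower, and slopes were 5.01% positive and 6.03% negative. With 5 components the shares were 5.49%, 3.36%, 1.29% and 1.46%. In the shared range of the component, with 54 libraries, 12.2% were higher and 7.63% lower. At a minimum of 10 FPKM, with 6070 genes tested, 34.5% were higher and 44.7% lower and 24.9% had a positive slope, and 43.6% of the called genes were higher in place of 55.1%. A stricter minimum of genes above 0, with the libraries ranked again, gave 12% positive and 9.82% negative slopes. Among the 61, 1 library per first part of the identifier, with the sets not ranked again, gave 24.1% and 16.2%. For the changes with components and with the stricter minimum the cause was not tested. Rescaling to equal totals moved the median difference of all genes from 0.03 to 0.09 (log2). For the 4 named IDs, 70 of 72 alternative differences kept direction and call. The IDs were chosen as large differences called in these same libraries, so this was largely built in and is only a description. With 5 components ENSRNOG00000057832 had 0.45 (adjusted p = 0.0643, limma) and ENSRNOG00000056135 had -0.3 (adjusted p = 0.358), and neither passed. The differences nearest 0 were 0.78 for ENSRNOG00000001052 and -1.09 for ENSRNOG00000003634. The alternatives with 5 components, recovered reads (as covariate or in limma-voom), the shared range, the library left out and the block were chosen after seeing the data. With the first part of the identifier as a block, 41.3% of genes were higher and 33.9% lower, and slopes were 26.9% positive and 19.8% negative. The labels give no replicate numbers to pair the sets by. Depth was recovered from steps in the values and not read from a count table.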
